A study of Mus musculus with 18 samples.

Results

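Accessible DNA on mouse chromosomes 8 and 11 that lies away from genes was described in embryonic stem cells profiled by ATAC-seq, an assay that reads open chromatin from where a transposase can cut. The members are the peaks of 1 merged list on either chromosome that lie over 2 kb from both annotated ends of every protein-coding gene of GRCm38, called distal peaks here. They number 18992 of 166066 peaks in the list, with 8760 on chromosome 8 and 10232 on chromosome 11. The other 17 autosomes held 114911 distal peaks by the same rule. Both chromosomes were chosen by their distal density per Mb, the highest in this list, so the densities below are a description and carry no test.

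The labels give 1 cell line, dTKO, with the genotype Suv39h1 fl/fl, Suv39h2-/- and Setdb1 fl/fl, which every library shares, in LIF and serum medium on gelatin. Cells were collected at 0, 3, 6, 12, 24 and 48 h of treatment with auxin (100 µg/ml) and dTAG13 (0.5 µM), with 3 libraries at each time and 18 in all; 0 h is the stated baseline, and its label carries the same treatment. Auxin and dTAG13 trigger degradation of suitably tagged proteins, and the labels do not say which proteins carry tags. The list pools all times and holds nothing but positions. Gain or loss after 0 h was therefore not analysed here, sequencing depth cannot be read from it, and replicate error is missing throughout. Of 7 marker genes of pluripotent stem cells, all 7 had a peak within 500 bp of an annotated end, as did 3 of 5 fibroblast markers, and such a peak does not measure expression.

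Distal open sites include enhancers, which act on promoters from a distance, sites bound by the insulator protein CTCF, and promoters of non-coding transcripts or of alternative starts inside genes. Mouse chromosome 11 is rich in genes and carries the Hoxb cluster, the type I keratin cluster and Trp53, whereas chromosome 8 carries Klf2, Zfp42 and Sall1, transcription factor genes of stem cells. Cultured mouse stem cells often gain a copy of chromosome 8 or of chromosome 11. Because the list holds no read depth, copy number was not measured, and its part in the values below was not tested.

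Some distal peaks lay over annotated starts of transcription. RefSeq gives 115 start windows of protein-coding genes (250 bases before to 50 after the start) that lie over 2 kb from gene ends on chromosome 8, and 62 of them (53.9%, 95% Wilson interval 44.8 to 62.7) were under a distal peak. On chromosome 11 it was 105 of 206 (51.0%, 44.2 to 57.7), and on the other autosomes 1351 of 2503 (54.0%, 52.0 to 55.9). For starts of long non-coding RNA (lncRNA) genes, 109 of 474 windows (23.0%, 19.4 to 27) were covered on chromosome 8 and 168 of 554 (30.3%, 26.6 to 34.3) on chromosome 11, against 1823 of 8332 (21.9%, 21.0 to 22.8) elsewhere. The intervals cover counting error only, and windows of 1 gene can share a peak. The choice of chromosomes dense in distal peaks by itself favours higher shares. Distal peaks covered 45.1 kb per Mb on chromosome 8 and 57.5 kb on chromosome 11, against 34.4 kb elsewhere, or 1.31 and 1.67 times as much. None of the shares of covered starts was higher by as large a factor. No background share for windows of this size was computed.

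The 4 windows printed here are those under the widest covering peak for each kind of gene on each chromosome, and show what a distal peak can hold. Gse1, whose product is found in histone deacetylase complexes, has an internal start at chr8:120537159-120537458 (plus strand) under a peak of 2938 bp. Sox1ot, an lncRNA that overlaps the neural factor gene Sox1, starts at chr8:12385521-12385820 (plus strand) under a peak of 2939 bp. Ubtf, which encodes the ribosomal DNA transcription factor UBF, has a start at chr11:102316656-102316955 (minus strand) under a peak of 3672 bp that covers further annotated Ubtf starts. Mir22hg, the host transcript of miR-22, starts at chr11:75461289-75461588 (plus strand) under a peak of 3034 bp. Sequences are RefSeq's for GRCm38.p6, 5′ to 3′ on the gene's strand, with CG dinucleotides in capitals.
Gse1: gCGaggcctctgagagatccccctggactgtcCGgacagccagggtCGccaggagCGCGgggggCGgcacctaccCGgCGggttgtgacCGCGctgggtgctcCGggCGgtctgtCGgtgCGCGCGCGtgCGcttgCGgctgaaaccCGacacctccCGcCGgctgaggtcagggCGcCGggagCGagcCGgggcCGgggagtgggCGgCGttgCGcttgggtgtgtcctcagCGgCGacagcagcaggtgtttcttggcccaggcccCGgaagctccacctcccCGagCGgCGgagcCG
Sox1ot: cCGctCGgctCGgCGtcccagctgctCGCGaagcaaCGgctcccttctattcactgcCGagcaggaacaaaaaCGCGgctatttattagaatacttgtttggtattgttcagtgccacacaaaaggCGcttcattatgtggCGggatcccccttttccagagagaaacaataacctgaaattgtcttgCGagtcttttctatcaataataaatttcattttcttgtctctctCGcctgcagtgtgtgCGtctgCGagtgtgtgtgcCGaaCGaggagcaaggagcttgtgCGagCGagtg
Ubtf: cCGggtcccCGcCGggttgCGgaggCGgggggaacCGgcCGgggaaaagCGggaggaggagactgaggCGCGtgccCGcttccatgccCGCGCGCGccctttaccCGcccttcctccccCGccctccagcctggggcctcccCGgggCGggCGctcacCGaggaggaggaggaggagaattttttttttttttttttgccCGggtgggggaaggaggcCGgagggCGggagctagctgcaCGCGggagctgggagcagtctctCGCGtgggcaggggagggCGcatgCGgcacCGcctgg
Mir22hg: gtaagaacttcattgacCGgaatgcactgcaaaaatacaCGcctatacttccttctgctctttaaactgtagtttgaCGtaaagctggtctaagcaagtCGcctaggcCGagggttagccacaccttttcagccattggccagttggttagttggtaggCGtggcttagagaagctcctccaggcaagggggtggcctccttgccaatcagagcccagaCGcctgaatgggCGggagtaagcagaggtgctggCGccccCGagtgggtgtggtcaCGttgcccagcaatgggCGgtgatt
The windows hold 37 (Gse1), 20 (Sox1ot), 31 (Ubtf) and 12 (Mir22hg) CG dinucleotides, against a median of 7 over the 31396 autosomal windows in the table, of which 94.8% hold at least 1. The rule does not fix which Ubtf window is printed, and the others under the same peak hold 11, 27, 39 and 40. CG reads the same on both strands. On chromosomes 8 and 11 together, windows of coding genes under a distal peak had a median of 17 CG and those under none had 4, and on the other autosomes the medians were 14 and 4. For lncRNA windows the medians were 6 and 3 on chromosomes 8 and 11 and also 6 and 3 elsewhere, so in each set the covered windows held more CG than the uncovered.

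MicroRNA genes formed a small group under the distal peaks. Of the hairpins counted here, 7 of 40 on chromosome 8 (17.5%, 8.75 to 31.9) and 12 of 83 on chromosome 11 (14.5%, 8.47 to 23.6) overlapped a distal peak, against 100 of 796 on the other autosomes (12.6%, 10.4 to 15.0), and the intervals overlap. The annotation lists more microRNA genes, 56 on chromosome 8, 88 on chromosome 11 and 992 elsewhere. Of those, 23.2%, 22.7% and 17.2% had a distal peak within 500 bp of an annotated end. Mature sequences of 5, picked after their positions were seen, are printed with the seed (bases 2 to 8) in capitals, as the seed is the part that pairs with targets.
miR-138-5p: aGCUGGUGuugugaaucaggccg
miR-132-3p: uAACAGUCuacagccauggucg
miR-212-3p: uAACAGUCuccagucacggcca
miR-193a-3p: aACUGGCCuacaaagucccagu
miR-218-5p: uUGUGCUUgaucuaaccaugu
Mir132 and Mir212 lay under 1 peak of 1371 bp on chromosome 11, at 75172572 to 75173942, and their 3p products share the seed AACAGUC. The other 3 have different seeds. Mir193a lay under a peak of 1783 bp at 79710315 to 79712097, 12.3 kb from the nearest coding gene end. Mir138-2, inside Nup93 on chromosome 8, lay under a peak of 1396 bp, and Mir218-2, inside the axon guidance gene Slit3 on chromosome 11, under 1 of 421 bp.

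Both chromosomes held more distal peaks per Mb than any other autosome. In full bins of 1 Mb, chromosome 8 had a median of 68 distal peaks (quartiles 38 and 95, 125 bins) and chromosome 11 had 87 (quartiles 59 and 113, 117 bins), against 47 (quartiles 28 and 72) over 2133 bins of the other autosomes. These are 1.45 and 1.85 times the median elsewhere. The medians of the other autosomes ran from 41 on chromosome 3 to 58 on chromosome 19, the nearest outside the choice, followed by chromosome 17 with 54.5. Single bins overlapped widely. They ran from 14 to 163 distal peaks on chromosome 8 and from 15 to 175 on chromosome 11, against 2 to 172 elsewhere. On chromosome 8, 57 of 125 bins (45.6%) lay above the upper quartile of the other autosomes and 20 (16.0%) below their lower quartile. On chromosome 11 it was 71 of 117 (60.7%) and 7 (5.98%). The upper part of the range was thus fuller on both, and on chromosome 11 the sparse part was thinner as well.

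**Figure D1:**
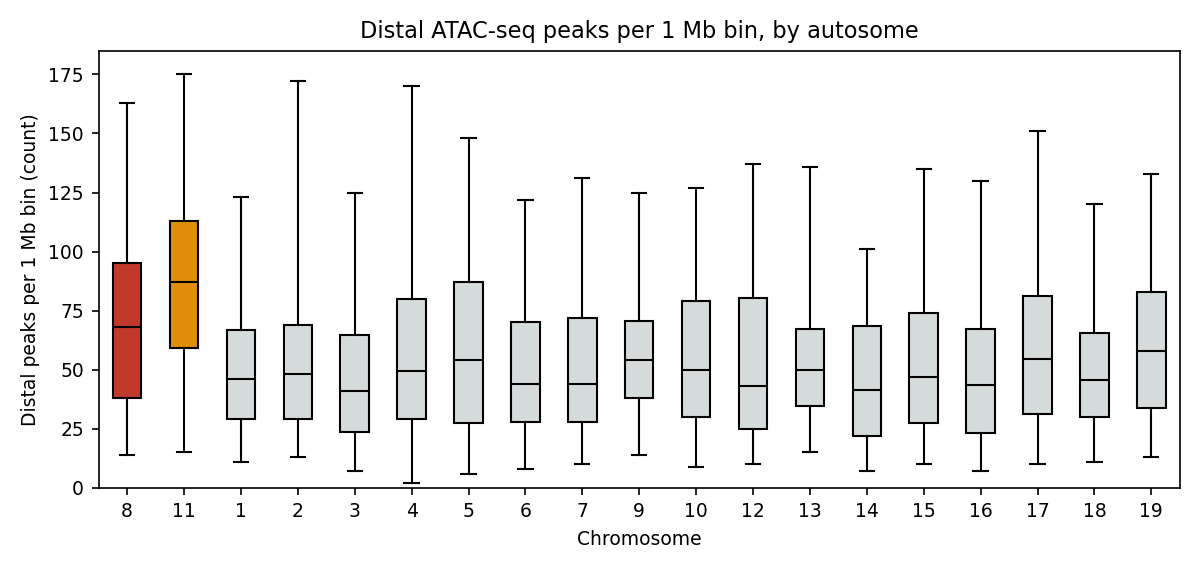
Distal peaks per 1 Mb bin for chromosomes 8 and 11 and then the other autosomes; lines are medians, boxes quartiles and whiskers the lowest and highest bin. The medians of chromosomes 8 (68) and 11 (87) lie above those of the 17 other autosomes (41 to 58), while the ranges of single bins overlap.

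Gene density set the 2 chromosomes apart. Chromosome 8 had 8.1 protein-coding genes per Mb, close to the 8.3 of the other autosomes and rank 9 among the 19 autosomes, whereas chromosome 11 had 13.3, below only chromosome 7 with 14.2. Chromosome 7 had a median of 44 distal peaks per Mb, against 47 over the other autosomes pooled. Its gene count holds many olfactory and vomeronasal receptor genes. Without them 1610 of its 2025 coding genes remain, against 1519 of 1602 on chromosome 11. Gene density without receptor genes was not compared. Gene-dense DNA leaves less room for distal peaks, with 94.5% of bases over 2 kb from a coding gene end on chromosome 8 and 91.2% on chromosome 11, against 94.3% elsewhere. Per Mb of such DNA there were 73.1 distal peaks on chromosome 8 and 93.9 on chromosome 11, against 56.2 on the other autosomes, whose highest was 65.5 on chromosome 17.

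At the same number of genes in a bin, both chromosomes still had higher medians than the other autosomes pooled, but in the least and most gene-dense bins not than each of them. In bins with 0 coding genes the median was 25.5 on chromosome 8 (18 bins) and 37 on chromosome 11 (9 bins), against 21 elsewhere (241 bins). Here 4 of the 17 other autosomes reached the median of chromosome 8 and 0 that of chromosome 11. In bins with 1-4 genes the medians were 49, 50 and 32 (chromosome 8, chromosome 11, others), with 5-9 genes 83, 72 and 56, with 10-19 genes 98.5, 113.5 and 72, and with 20-39 genes 107.5, 113 and 77. In these 4 classes no other autosome with at least 3 bins reached either chromosome, except that chromosome 17 equalled chromosome 11 at 5-9 genes. Bins with 40 or more genes were few, 3 on chromosome 8 with a median of 90 and 8 on chromosome 11 with 100, against 80 elsewhere. In that class 2 of the 5 other autosomes with at least 3 bins were above chromosome 8 and 1 above chromosome 11, with chromosome 10 highest at 105. Set against the mean of the other autosomes in bins of the same gene count, chromosome 8 held 1.33 times and chromosome 11 1.43 times as many distal peaks, and the same ratio for each of the other 17 ran from 0.88 (chromosome 7) to 1.11 (chromosome 5), with an SD of 0.07. Without this matching, the means over bins were 1.30 and 1.62 times those elsewhere. Bins were matched by gene count and not by kind of gene. Without olfactory and vomeronasal receptor genes, 16549 of 17913 coding genes remain elsewhere and 2557 of 2645 on chromosomes 8 and 11. The part of this difference in the values was not tested. As a description across bins, Spearman's rho between distal peaks and coding genes was 0.78 on chromosome 8 and 0.70 on chromosome 11, against 0.68 over 2133 bins elsewhere, with no p because neighbouring bins share sequence context and libraries.

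**Figure D2:**
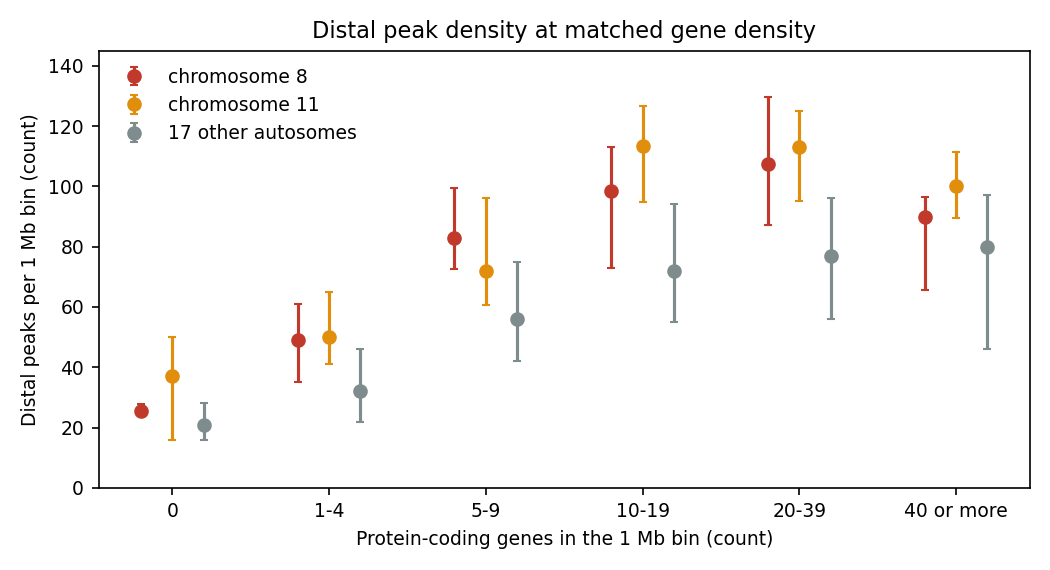
Median distal peaks per 1 Mb bin (points) with quartiles (bars), by the number of protein-coding genes in the bin. Chromosomes 8 and 11 lie above the pooled other autosomes in each class, from 25.5 and 37 against 21 in bins without coding genes to 107.5 and 113 against 77 in bins with 20-39.

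The higher density was present both inside and between genes. Inside protein-coding gene bodies, chromosome 8 had 91.0 and chromosome 11 had 108.1 distal peaks per Mb of distal DNA, against 66.3 on the other autosomes, which is 1.37 and 1.63 times as many. Between genes there were 61.9 and 82.9 per Mb, against 50.0, or 1.24 and 1.66 times. The densities of single other autosomes reached 75.1 inside genes (chromosome 5) and 59.0 between them (chromosome 17). Inside genes lay 49.2% of distal peaks on chromosome 8 (48.2 to 50.3) and 52.7% on chromosome 11 (51.7 to 53.6), against 46.7% elsewhere (46.4 to 47.0), while genes made up 39.8%, 46.1% and 39.7% of the distal DNA. Neighbouring distal peaks were a median of 6.64 kb apart on chromosome 8 and 5.89 kb on chromosome 11, against 8.30 kb elsewhere and at least 7.26 kb on each other autosome.

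The peaks were spread differently around genes on the 2 chromosomes. The median distance to a coding gene end was 30051.5 bp on chromosome 8 and 19058.5 bp on chromosome 11, against 25897 bp elsewhere. Within 2-10 kb of a gene end lay 23.3% of distal peaks on chromosome 8 and 30.9% on chromosome 11, against 25.2% elsewhere, and over 200000 bp away lay 13.4% and 8.56%, against 10.8%. At the 2 kb limit of the rule, 88 peaks of the 2 chromosomes lay 2001 to 2100 bp from a gene end and are members, with a median width of 603 bp, and 96 peaks at 1900 to 2000 bp, with 547.5 bp, are not.

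Density changed along both chromosomes. In 5 equal segments from the centromeric end, the median bin of chromosome 8 held 79, 41, 52, 62 and 100 distal peaks, and that of chromosome 11 held 70, 62, 90.5, 101 and 113. In the second segment chromosome 8 was at 0.93 times the median of the other autosomes (44), and 11 of the 17 were as high or higher. In the last segment it was at 2.04 times (49), with 1 as high. Chromosome 11 stood at 1.36 to 2.31 times in the 5 segments, and 0 of the 17 reached it in the last 3. Coding genes per Mb in the same segments were 8.5, 3.8, 8.7, 7.4 and 12.1 on chromosome 8 and 5.2, 7.0, 18.4, 14.8 and 21.4 on chromosome 11. On both chromosomes the last segment was highest in genes and in distal peaks, but not every step between segments went the same way for both. The part of gene density in the course along the chromosome was not tested.

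**Figure D3:**
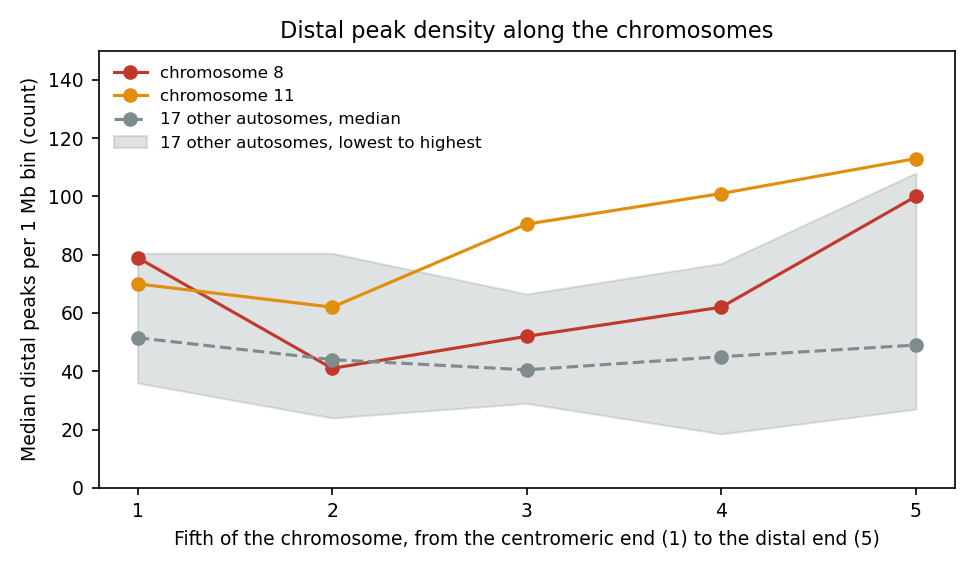
Median distal peaks per 1 Mb bin in each of 5 equal segments of the chromosome; grey shows the median and the lowest to highest of the 17 other autosomes. Chromosome 8 lies at 41 in its second segment, below the grey median of 44, and at 100 in its last, and chromosome 11 lies at 113 in its last.

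The densest Mb of chromosome 8 held 163 distal peaks in each of 2 bins. The bin at 123000001 to 124000000 spans 28 coding genes, including Ankrd11, a chromatin regulator, and Fanca of the Fanconi anaemia DNA repair pathway, and 66 of its peaks lay inside genes. The bin at 25000001 to 26000000 spans 19, including Nsd3, a histone methyltransferase gene, and Adam9, a membrane protease gene, with 112 peaks inside genes. The next 3 held 151 (with Gse1 and Crispld2), 142 (with Cmip and Plcg2) and 140 (with Stox2 and Wwc2). On chromosome 11 the densest bin, 88000001 to 89000000, held 175 distal peaks of median width 674 bp, 117 of them inside genes, with Msi2, an RNA-binding protein of stem and progenitor cells, as its largest gene. It was followed by bins with 171 (Prkca, Pitpnc1 and the nucleosome remodelling factor gene Bptf), 166 (Septin9 and Tnrc6c), 154 (Spop and Igf2bp1) and 146 (Arhgap23 and Npepps).

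The sparsest bins held few coding genes or none. On chromosome 8 they held 14 to 20 distal peaks and included Cdh11 (14) and Cdh8 (16), cadherin adhesion genes, and Sgcz (18), a sarcoglycan gene, and the bins at 42000001 to 43000000 (16) and 7000001 to 8000000 (20) held no coding gene. On chromosome 11 they held 15 to 19, at 3 bins from 37000001 to 40000000, the first of which holds an end of the teneurin gene Tenm2 and the others no coding gene, at 92000001 to 93000000, and at 42000001 to 43000000 over Gabrb2, a GABA receptor subunit gene (19). The longest stretches without a distal peak were 329.2 kb on chromosome 8, at 30172845 to 30502068 with no coding gene, and 279.9 kb on chromosome 11, at 111537919 to 111817829 over Gm11677. A stretch of 311.2 kb over Gpm6a, a neuronal membrane protein gene, and 1 of 276.4 kb that reaches into an end of Cdh11 and lies mostly outside it followed on chromosome 8. The stretch over Gpm6a held 4 peaks that lie within 2 kb of coding gene ends and so are not members. On chromosome 11, 232.0 kb over Gabrb2 and 228.7 kb in DNA 1017.1 kb from Tenm2 followed. Stretches over 200000 bp numbered 12 of 8759 gaps between distal peaks on chromosome 8 and 4 of 10231 on chromosome 11. On the 17 other autosomes they numbered 403 of 114894, the longest of them 759.4 kb.

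Peak width differed little. Distal peaks had a median width of 546 bp on chromosome 8 (quartiles 354 and 818) and 565 bp on chromosome 11 (366 and 840), against 536 bp elsewhere (349 and 812). Chromosome 11 was the widest of the 19 autosomes and chromosome 8 had rank 4, and the other autosomes ran from 520 bp (chromosome 14) to 554 bp (chromosome 7). Over 1000 bp wide were 14.7% of distal peaks on chromosome 8 (14 to 15.5) and 15.9% on chromosome 11 (15.2 to 16.6), against 15.0% elsewhere (14.8 to 15.2). Together they covered 45.1 kb per Mb on chromosome 8 and 57.5 kb on chromosome 11, against 34.4 kb elsewhere. Peaks within 2 kb of a gene end were wider in all sets, with medians of 990, 932.5 and 978 bp (chromosome 8, chromosome 11, others). Across 5 width classes with equal shares of the distal peaks elsewhere, the density on chromosome 8 was 1.24 to 1.37 times that of the other autosomes. On chromosome 11 it was 1.47 times in the narrowest class, up to 317 bp, 1.77 times at 631 to 895 bp and 1.73 times above that.

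**Figure D4:**
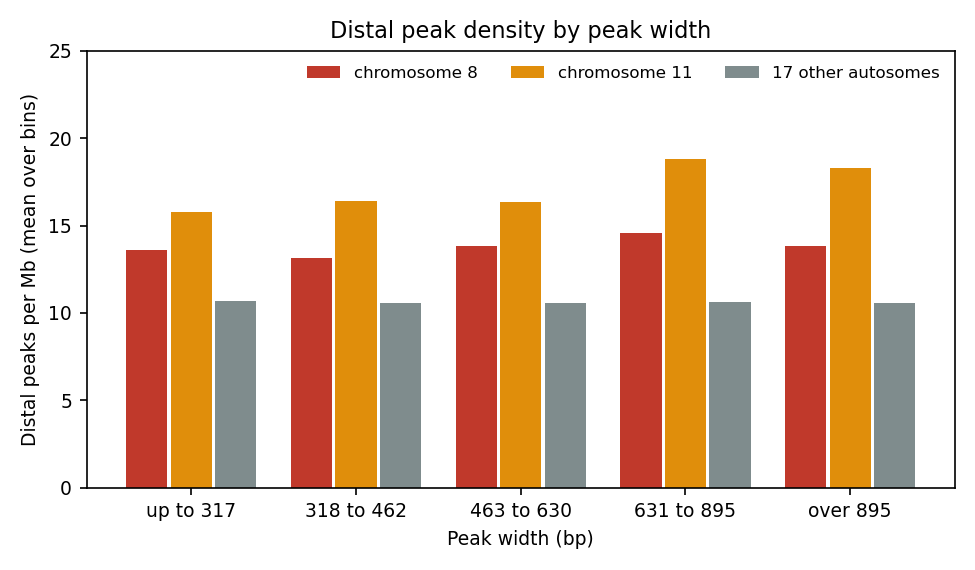
Mean distal peaks per Mb in 5 classes of peak width. In each class chromosome 8 (13.15 to 14.6) and chromosome 11 (15.75 to 18.79) stand above the 17 other autosomes (10.56 to 10.68).

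Peaks near gene ends, which the choice of members left out, were also frequent on both chromosomes. Per coding gene there were 1.47 peaks within 2 kb of a gene end on chromosome 8 and 1.53 on chromosome 11, against 1.24 on the other autosomes, whose range was 1.04 (chromosome 7) to 1.44 (chromosome 18). Leaving out olfactory and vomeronasal receptor genes, 835 of 1038 coding genes of chromosome 8 (80.4%, 77.9 to 82.7) and 1272 of 1519 of chromosome 11 (83.7%, 81.8 to 85.5) had a peak within 500 bp of an end, against 12795 of 16549 elsewhere (77.3%, 76.7 to 77.9). Chromosome 11 lay above each of the other autosomes, which ran from 70.1% (chromosome 16) to 82.3% (chromosome 12), and chromosome 8 lay inside their range. The interval of chromosome 12 (79.2 to 85.0) overlaps that of chromosome 11. With those receptor genes counted, 83 on chromosome 11 and 5 on chromosome 8, the shares were 80.3% on chromosome 8 and 80.1% on chromosome 11, against 71.7% elsewhere, and both lay inside the range of the other autosomes, 59.6% (chromosome 7) to 82.3% (chromosome 12). Genes of 1 chromosome are not replicates, so no test was made.

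Around single genes, distal peaks were counted in the gene and 100 kb either side. The median over all coding genes was 98.4 distal peaks per Mb of this window on chromosome 8 and 102.6 on chromosome 11, against 71.0 elsewhere, and 2017 of 2645 genes of the 2 chromosomes (76.3%) lay above the median of elsewhere. The lists below are read beside that share. Neighbouring genes share windows.

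Chromatin genes had 21 of 21 above the median of elsewhere, and a list median of 141.7 per Mb, with 130.7 for the 4 genes of chromosome 8 and 141.7 for the 17 of chromosome 11. Of these, 3 of 4 and 13 of 17 lay above the median of all coding genes of their own chromosome. Suz12, a core subunit of Polycomb repressive complex PRC2, had 50 distal peaks or 207.5 per Mb, and its widest, of 1979 bp, lay 15.6 kb from the gene. Cbx1, an HP1 gene whose product binds methylated H3K9, had 33 (149.8 per Mb) with a peak of 1911 bp inside the gene. The Polycomb genes Cbx2 and Cbx8, which lie side by side on chromosome 11, had 30 and 29 and share a peak of 1521 bp at 119052032 to 119053552. On chromosome 8, Nsd3 had 50 (157.2 per Mb) and Ctcf, the insulator gene, 21 (85.2 per Mb), below the chromosome's median. Ezh1, a catalytic subunit of PRC2, was the lowest with 18 (76.5 per Mb).

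Genes of pluripotency and of LIF and WNT signalling had 19 of 21 above that median, and 15 of 21 above the median of all coding genes of their own chromosome. The list median was 107.7 per Mb, with 158.5 for the 6 genes of chromosome 8 and 107.0 for the 15 of chromosome 11. The stem cell factor Klf2 had 40 distal peaks (197.4 per Mb), a density at the 99.9th percentile of autosomal coding genes, with its widest of 2516 bp 46.1 kb away. Cdh1, the E-cadherin gene of epithelia and stem cells, had 51 (191.1 per Mb), 13 inside the gene. Sall1 had 36 (166.0 per Mb), 11 of them over 1000 bp, and Zfp42, the marker Rex1, 32 (151.0 per Mb). On chromosome 11, Grb2, an adaptor of growth factor receptors, had 47 (177.7 per Mb), the LIF pathway inhibitor Socs3 had 33 (161.6 per Mb) with the widest member of that window, 3247 bp, 75 kb away, and the signal transducer Stat3 had 30 (118.7 per Mb). Lif and Osm, neighbouring cytokine genes, had 23 and 22 and share a peak of 2213 bp at 4245620 to 4247832. Smad1, of BMP signalling, with 12 (46.0 per Mb) and Nog, a BMP antagonist, with 12 (59.4 per Mb) were below the median of elsewhere, and Trp53, the p53 gene, had 19 (89.8 per Mb).

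Developmental transcription factor genes had 24 of 29 above that median, with a median of 83.5 per Mb on chromosome 8 (11 genes) and 113.3 on chromosome 11 (18 genes). Only 2 of the 11 on chromosome 8 exceeded the median of their own chromosome, Nfix with 44 distal peaks (148.4 per Mb) and the neural factor Pou4f2 with 22 (108.0 per Mb). The Irx3, Irx5 and Irx6 homeobox genes had 14, 17 and 18, and Foxf1, Foxc2 and Foxl1, forkhead genes of mesoderm, 13, 15 and 17. Sox1 had 19, 9 of them over 1000 bp, among them the 2939 bp peak over the Sox1ot start printed above. On chromosome 11, the 10 Hoxb genes of body patterning all lay between 108.6 and 143.4 per Mb, above the median of their chromosome. The widest peak around Hoxb1, Hoxb4 and Hoxb9 was the same, of 2256 bp at 96331674 to 96333929, within the annotated span of Hoxb3. Dlx3 and Dlx4 had 31 each, and Otx1, of the forebrain, had 12 (58.0 per Mb).

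Clustered gene families differed in their surroundings on the same chromosomes. The window length includes DNA within 2 kb of coding gene ends, where no member can lie. Closely packed genes therefore leave less room for distal peaks, and the values were not corrected for this. Genes of repeated families can also share reads. The part of either in the low values was not tested. Of 53 defensin genes on chromosome 8, which encode antimicrobial peptides, 10 lay above the median of elsewhere, and their median was 34.8 per Mb. Carboxylesterase genes (Ces) had 4 of 19 above it and a median of 47.4. On chromosome 11, 0 of 23 keratin-associated genes, 11 of 27 keratin genes and 8 of 83 olfactory receptor genes lay above it, with medians of 19.9, 57.2 and 44.8 per Mb, whereas 4 of the 5 olfactory receptor genes of chromosome 8 did (median 84.5). Within the keratin cluster the ends differed from the middle, as Krt222 had 26 distal peaks and Krt42 22, whereas Krt31, Krt32 and Krt35 had 4 each. The Ccl chemokine genes had 3 of 3 above it on chromosome 8 and 1 of 11 on chromosome 11, with 4 distal peaks around Ccl8 and Ccl12 and 17 around Ccl5. Zfp genes had 25 of 46 above it, with medians of 84.5 on chromosome 8 and 67.3 on chromosome 11. Among small families, the 4 metallothionein genes of chromosome 8, whose products bind metal ions, all lay above it (median 116.7), as did 3 genes of the alpha-globin cluster of chromosome 11, Hba-x, Hba-a1 and Hba-a2 (94.6), against 4 of 7 myosin heavy chain genes (77.7) and 3 of 8 Slfn genes (67.8).

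A list of 20 long genes had 4 above it and a median of 43.4 per Mb. The list was picked by hand and not by a length limit, and it leaves out long genes with many distal peaks, such as Gse1 (352.9 kb, 188.1 per Mb) and Slc39a11 (405.4 kb, 143.7 per Mb), so its median does not stand for long genes. Highest was Msi2 with 105 distal peaks (181.4 per Mb), 76 of them inside the gene, and 16 of the 105 were over 1000 bp wide. Rptor, a subunit of the mTORC1 kinase complex, had 65 (130.9 per Mb), Bcas3 had 64 (95.1 per Mb) and Wwox, an oxidoreductase gene, 88 (79.1 per Mb). Tenm3, a teneurin adhesion gene of 1297.2 kb, also had 105 but spans more DNA (70.1 per Mb). Cdh11, Cdh8 and Gabrb2 had 4, 8 and 4 (11.3, 13.5 and 9.7 per Mb). The genes with the most distal peaks after Tenm3 on chromosome 8 were Gse1 (104, of which 79 inside), Cdh13 (89), Wwox (88) and Pard3 (79). After Msi2 on chromosome 11 they were Pitpnc1 (99, or 213.9 per Mb), the zinc transporter gene Slc39a11 (87), Asic2 (78) and Tenm2 (73).

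**Figure D5:**
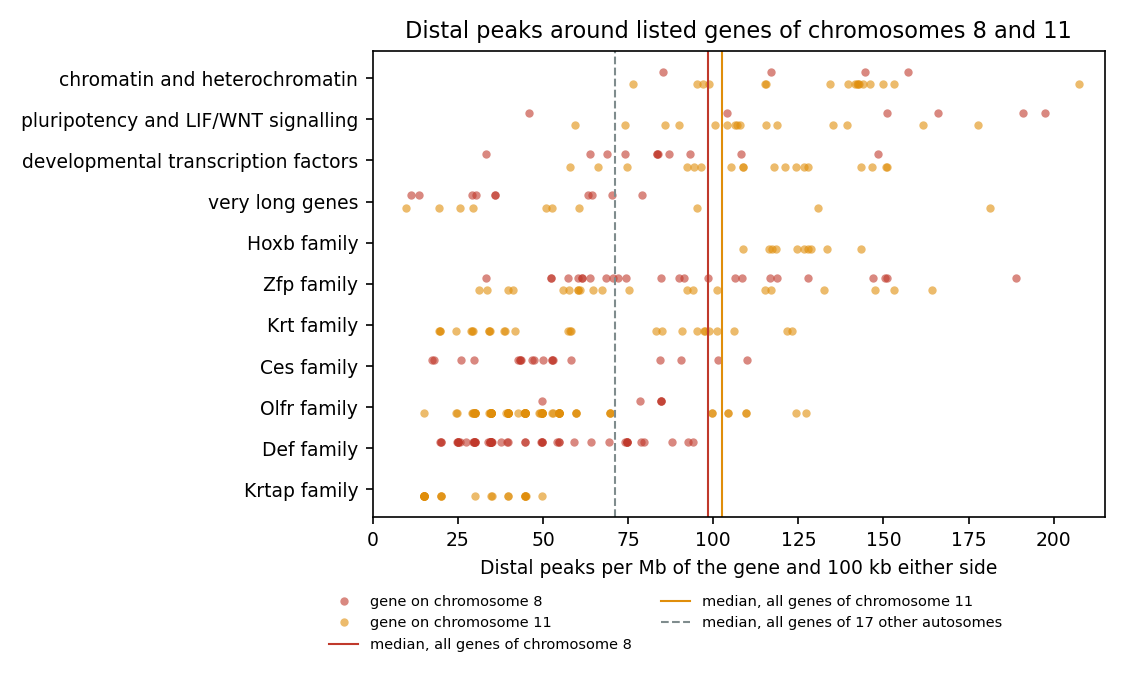
Distal peaks per Mb in each listed gene and 100 kb either side, 1 point a gene, with vertical lines at the medians of all coding genes of chromosome 8 (98.4), chromosome 11 (102.6) and the 17 other autosomes (71.0). Chromatin genes lie at 76.5 to 207.5 and keratin-associated genes at 14.9 to 49.8.

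On chromosome 8, the widest 3 distal peaks, of 7922, 6111 and 5798 bp, lay together at 20660598 to 20706882, 13.8 to 54.3 kb from the predicted gene Gm21119, followed by 1 of exactly 5000 bp at 52303714 to 52308713, 1203.0 kb from Aga. On chromosome 11, peaks of 4498 and 3526 bp lay at 3100187 to 3104684 and 3144503 to 3148028 beside and inside Sfi1, close to the centromeric end. No source used here says whether reads of repeated DNA or blacklisted regions were removed, so these widths are uncertain. The Ubtf peak of 3672 bp was second on chromosome 11, and the peak of 3237 bp inside the muscle chaperone gene Unc45b had rank 5.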

How the data were processed

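The labels describe 18 ATAC-seq libraries, and the authors deposited 1 list of merged narrow peaks in BED form, with a chromosome, start, end and name per peak and no other value. MACS2 2.2.7.1, Bowtie2 2.4.2 and Trimmomatic 0.36 are named, with the builds mm10 and GRCm38, per the submitters' processing notes. How libraries were merged, the peak threshold, and the treatment of duplicates, multi-mapping reads and insertion offsets are not given in the sources used here. Starts were turned to 1-based positions. Peaks on unplaced contigs (322) were left out, and the list has 0 further columns holding sample values.

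Genes came from RefSeq GRCm38.p6, from which 402 rows (126 protein-coding) with scaffold, patch, mitochondrial or unknown coordinates were left out, leaving 21774 protein-coding genes. A peak was distal where its nearer edge lay over 2000 bp from every annotated start and end of these. Bins of 1 Mb were those wholly between a chromosome's first and last peak, and peaks were counted by midpoint. Genes were counted in bins by midpoint as well, and named genes are those of the lists, the 5 densest and 5 sparsest bins, the 5 widest peaks, the 3 longest gaps and the 5 genes with the most distal peaks per chromosome. Printed start windows and miRNAs were added after their positions were seen. List genes were taken from 4 lists and 12 family prefixes. The members and lists were chosen with earlier results of these data known. With 1 pooled list there are no replicates, so no test was run. Tests planned per library were not run. Wilson intervals (95%) cover counting error only. Distances and counts were tested on simulated peaks. Scripts ran in Python 3.11.15 with pandas 2.3.3, numpy 2.4.6, scipy 1.17.1 and, for figures, matplotlib 3.10.9.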

Additional observations from a re-analysis of the deposited data

How the results depend on the processing

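The median distal density of chromosomes 8 and 11 pooled was 1.57 times that of the other autosomes, and ran from 1.39 to 1.68 in 14 alternatives. Both chromosomes were chosen by this density and all settings reuse the same peaks. Ratios above 1 are therefore no independent support, and only their change between settings is described. The interval of the median over bins (1.49 to 1.72) served only as a yardstick for change between settings. Bins of 1 pooled list are not replicates, so it does not measure replicate error. The pooled ratio was at its lower limit with 1.49 when distal was set beyond 10000 bp, and below it with 1.45 for means over bins. Also below it, in settings chosen after seeing the data, were 1.39 at the gene density of the other autosomes and 1.48 against the gene-dense autosomes 7, 17 and 19. The 1.39 rests on means, so it is read beside the 1.45 for means and not beside the 1.57 for medians. On means, matching by gene density moved chromosome 8 from 1.30 to 1.33 and chromosome 11 from 1.62 to 1.43. Chromosome 8 alone ran from 1.30 to 1.48 and chromosome 11 alone from 1.43 to 1.97. The number of members moved to 9039 with peaks wider than the median of 578 bp and to 9953 with the others, and stayed within 1.5 times in the other 5. The median width of 555 bp moved to 546 beyond 10000 bp and to 847 and 369 for wide and narrow peaks. The distal share of peaks, 82.6%, moved to 87.0%, 73.4% and 60% beyond 1000, 5000 and 10000 bp, to 74.2% with gene ends of every kind, to 84.0% from midpoints and to 75.7% and 90.1% for wide and narrow peaks, since these settings redefine the share. No paired analysis was possible because the list names no library, and replicates could not be left out for the same reason. Depth, peak height and copy number are unknown, so weak sites that the list lacks cannot be told from closed DNA.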

Other observations

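Non-coding genes of several kinds also had distal peaks at their ends. For lncRNA genes, 257 of 706 on chromosome 8 (36.4%, 95% Wilson interval 32.9 to 40) and 301 of 739 on chromosome 11 (40.7%, 37.2 to 44.3) had a distal peak within 500 bp of an annotated end, against 3396 of 10877 on the other autosomes (31.2%, 30.4 to 32.1). For pseudogenes it was 87 of 405 (21.5%, 17.8 to 25.7) and 112 of 405 (27.7%, 23.5 to 32.2), against 1398 of 7987 (17.5%, 16.7 to 18.4). Genes of small nuclear RNA, which act in splicing, stood at 2 of 40 on chromosome 8 (5.00%, 1.38 to 16.5) and 20 of 61 on chromosome 11 (32.8%, 22.3 to 45.3), against 83 of 823 elsewhere (10.1%, 8.21 to 12.3). Transfer RNA genes went the other way on chromosome 11, with 17 of 47 (36.2%, 24.0 to 50.5), against 211 of 332 elsewhere (63.6%, 58.2 to 68.5), and chromosome 8 had 4 of 7. Peaks within 2 kb of coding gene ends are not counted here, while non-coding genes that lie there stay in the totals. A low share therefore need not mean closed DNA. Members of repeated families can share reads. The 2 chromosomes were chosen for dense distal peaks, which by itself favours higher shares at any kind of position. DNA covered by distal peaks was 1.31 times that of the other autosomes on chromosome 8 and 1.67 times on chromosome 11. The lncRNA and pseudogene shares were higher by smaller factors, and the small nuclear RNA share of chromosome 11 by a larger 1. No background share at gene ends was computed, and none of these shares was tested.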
